A study of Mus musculus with 8 samples.

Results

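Receptor genes for serotonin, dopamine, noradrenaline, adrenaline and acetylcholine were measured in the RNA of 8 mouse samples, 4 of them wild type (WT) and 4 with the Scn2a gene trapped on both chromosomes (HOM). The genes were chosen by symbol: every protein-coding gene of the count matrix with a symbol of the Htr, Drd, Adra, Adrb, Chrm, Chrna or Chrnb series and at least 1 read in at least 4 libraries. In all, 45 of the 54446 genes in the matrix met this rule. A further symbol match, the serotonin receptor gene Htr2b, lies wholly inside Psmd1 and had 0 counts in every library. Of the 45 genes, 42 passed the filter on low counts and were tested, while Htr3b, Chrna9 and Chrnb4 were too sparse.

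The HOM animals (Scn2agt/gt) carry, in both copies of Scn2a, an inserted cassette that interrupts the transcript; the gene encodes NaV1.2, a sodium channel that neurons use to fire action potentials. The WT animals were their littermates, and the parents were heterozygous. The strain is labelled C75BL6 for every sample and the title of the series calls the mice adult. The labels used here give no sex, no age and no brain region, and they do not restrict the trap to a cell type. Whether every sample was its own mouse is not said either, and the p-values therefore refer to the spread among these 8 samples. Values per library are given in the order of replicates 1 to 4. Scn2a stood at 435 ± 51.6 CPM (counts scaled to the adjusted size of each library) in WT and at 128 ± 15.1 CPM in HOM (SD, n = 4), without overlap.

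Most of these receptors are membrane proteins that signal through G proteins: those coupled to Gs raise cyclic AMP, those coupled to Gi lower it, and those coupled to Gq activate phospholipase C. Nicotinic receptors and the serotonin receptor of Htr3a are instead cation channels, built of subunits and opened by the transmitter. In the forebrain they mostly sit on cells other than those that release the transmitter, since the axons arrive from small groups of neurons in the brainstem and basal forebrain.

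Total counts per library lay between 27993412 and 37538988, and the 45 receptor genes together took between 0.0891% and 0.0995% of them. HOM replicate 4 had 2 counts over Uty, Kdm5d, Ddx3y and Eif2s3y, all on the Y chromosome, where the other 7 libraries had 4452 to 5984. Y-linked expression was thus not balanced between the genotypes, and sex was not in any fit. Leaving out HOM replicate 4 also takes away this imbalance. The labels call the cell type neuron, yet summed oligodendrocyte markers (6 genes, none at 0) ranged over 3651 to 5483 CPM in WT and 3147 to 3846 CPM in HOM. The summed levels of 5 astrocyte markers (4117 to 4432 CPM in WT, 3200 to 4043 in HOM), 6 interneuron markers (856 to 945 and 678 to 746) and 5 pericyte and smooth muscle markers (146 to 156 and 111 to 133) did not overlap between genotypes. Among these genes only Gad1, Lamp5, Aqp4 and Abcc9 passed the test used below, all lower in HOM. Gad2, Pvalb, Sst, Vip, Slc1a3, Aldh1l1, Gja1, Vtn and Kcnj8 overlapped between genotypes. The astrocyte sum was mostly Slc1a2 (3319 CPM in WT and 2724 CPM in HOM on average). Summed cortical excitatory markers (7 genes, 1791 to 2214 CPM in WT and 1757 to 1923 in HOM) overlapped between genotypes. So did endothelial markers (4 genes, 125 to 172 and 96.9 to 131). In these lists only Neurod6 and Flt1 passed, both lower in HOM. Choroid plexus markers, 1 of 11 at 0 (Kcnj13), summed to 148 to 1728 CPM in WT and 19.3 to 236 CPM in HOM, the highest library being WT replicate 4. As a mean of log2 CPM values the WT libraries had 2.24 ± 1.17 and the HOM libraries 0.179 ± 0.862 (SD, n = 4; permutation test, exact and two-sided, p = 0.0571). Of the 10 choroid plexus markers tested, 4 passed the test used below, all lower in HOM: Kl, Slc4a5, Aqp1 and Steap1. Steap1 alone did not overlap between genotypes. In such mixed tissue fewer cells of a type and less RNA per cell cannot be told apart. The part of these cell contents in the receptor values below was not tested, except where a fit with the choroid plexus level is given.

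Receptor genes that passed the test were all lower in HOM. They were 6 of 42: the adrenergic receptor genes Adrb1 and Adra1b, the muscarinic receptor genes Chrm1 and Chrm4, and the nicotinic subunit genes Chrna3 and Chrnb3. That is 14.3% of the receptor genes tested, against 5.40% of all 17395 genes tested (adjusted p under 0.05, from the quasi-likelihood test of edgeR with Benjamini-Hochberg adjustment over all genes). For calls in the lower direction the share over all genes was 2.94%, for calls in the higher direction 2.47%. The log2 fold change was negative at 30 of the 42 genes and its median was -0.19, beside a median of 0.00 over all genes. At 9 of 42, or 21.4%, WT and HOM libraries had no CPM overlap, against 14.1% of all genes tested. HOM lay below at 8 (7.47% of all genes) and above at 1, Chrna10 (6.63% of all genes). The direction of calls over all genes depends on the filter, the libraries kept and the scaling. There were 429 higher and 511 lower as reported, 528 and 439 with a filter of 1 CPM, and 294 and 258 without HOM replicate 4. The calls numbered 539 and 355 after upper-quartile scaling, and 844 and 286 by library totals only. Under these scalings the receptor median was -0.16 and -0.12, beside 0.034 and 0.068 over all genes. Of the 42 receptor values 28 and 26 were then negative.

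**Figure D1:**
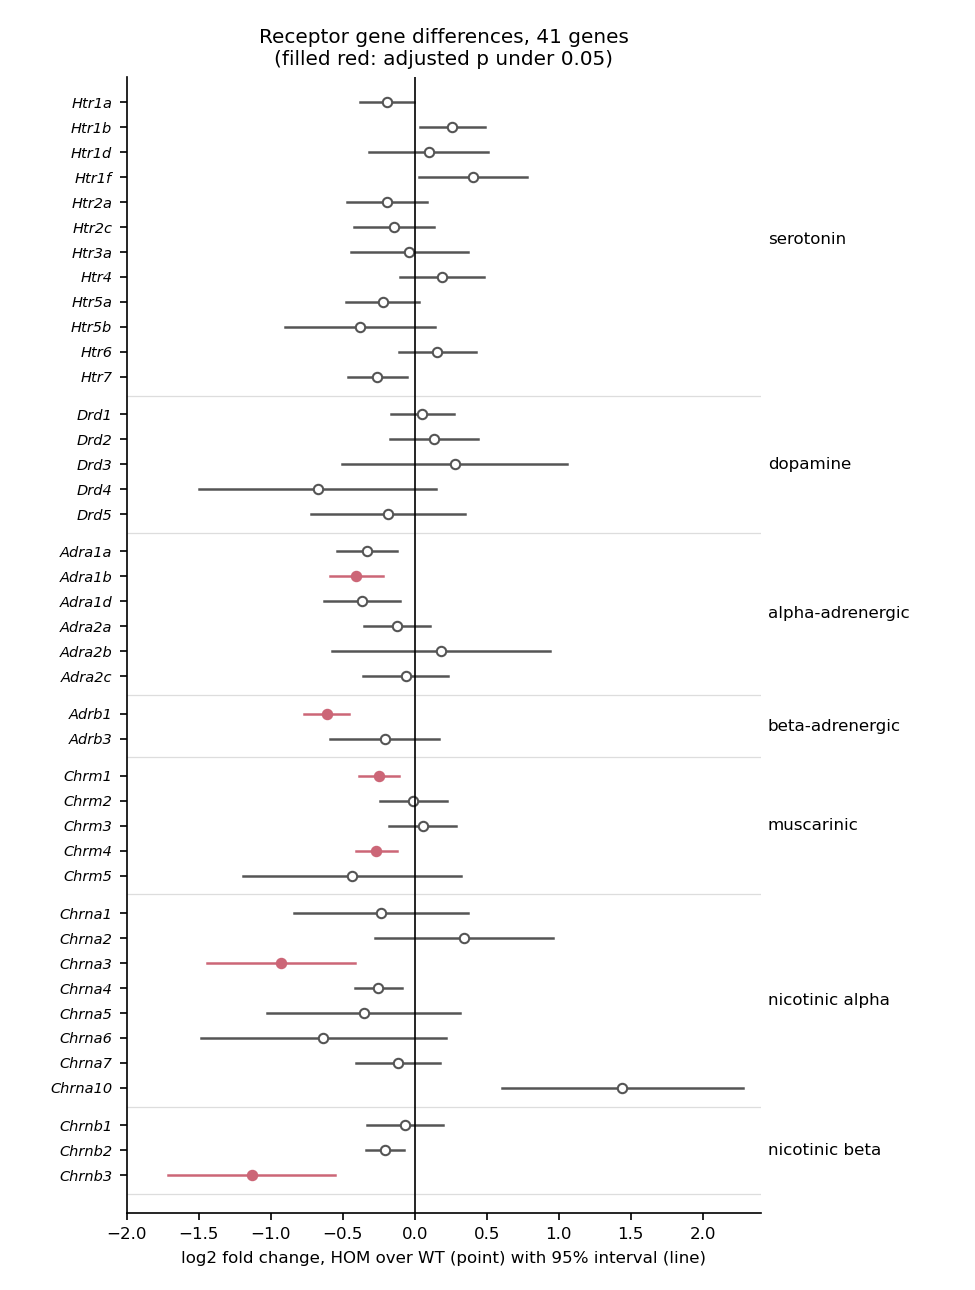
Log2 fold changes (HOM over WT, x axis) of 41 receptor genes tested, grouped by family, with 95% intervals as lines; filled red points mark adjusted p under 0.05. The 6 marked genes all lie left of 0, none is a serotonin or dopamine receptor gene, and the widest intervals belong to genes of low count such as Chrna6 and Chrna10.

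By textbook coupling, a grouping made after the values were seen, 2 of 8 Gq-coupled receptor genes were lower, with 7 of 8 fold changes negative and a median of -0.29. Among 8 Gs-coupled receptor genes 1 was lower (median -0.10), and among 14 Gi-coupled ones 1 was lower (median -0.04, 8 negative). Of 12 channel subunit genes tested 2 were lower, with 10 negative and a median of -0.22. No difference between these classes was tested.

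Adrb1 showed the largest departure relative to its error. It encodes the beta-1 adrenergic receptor, a Gs-coupled receptor for noradrenaline found on cortical neurons. Its level was 52.8, 52.5, 47.3 and 46.7 CPM in WT and 30.5, 34.0, 33.7 and 32.4 CPM in HOM. The lowest WT library thus stood well above the highest HOM library, and HOM samples held 65.5% of the WT mean. Adrb1 fell between a WT mean of 49.8 ± 3.25 CPM and a HOM mean of 32.6 ± 1.61 CPM (SD, n = 4; log2 fold change -0.61, SE 0.07, adjusted p = 0.00119), rank 25 by p among all genes tested. Its place in GRCm38 is the plus strand of chromosome 19, 56722199 to 56733113 (ENSMUSG00000035283), where GENCODE lists it without an overlapping gene. Adrb3, which did not pass, had a log2 fold change of -0.21 at a WT mean of 2.83 CPM, with 46.9% of its span shared with Gm45470 (interval -0.59 to 0.17).

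Of the Gq-coupled alpha-1 receptor genes Adra1b passed. Its level was 23.5, 28.8, 25.9 and 23.5 CPM in WT and 19.3, 20.1, 19.5 and 17.99 CPM in HOM. Every HOM library was below every WT library, and the means were 25.4 ± 2.52 and 19.2 ± 0.879 CPM (SD, n = 4; log2 fold change -0.40, SE 0.08, adjusted p = 0.0222). Adra1a read 47.3, 46.1, 48.4 and 41.2 CPM in WT and 35.5, 43.2, 35.3 and 31.4 CPM in HOM, with HOM replicate 2 inside the WT range (log2 fold change -0.33, SE 0.10, adjusted p = 0.0622). Adra1d gave 20.3, 27.8, 24.9 and 18.9 CPM in WT and 16.5, 17.5, 20.1 and 16.9 CPM in HOM, where HOM replicate 3 overlapped the lower WT libraries (-0.37, SE 0.12, adjusted p = 0.0945). Neither passed, although both values were close to that of Adra1b.

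The Gi-coupled alpha-2 receptor genes, which include the autoreceptor of noradrenaline neurons, did not pass. Adra2a varied little in WT, from 30.3 to 32.3 CPM, and more in HOM, at 23.8, 25.4, 32.1 and 33.4 CPM in replicates 1 to 4 (log2 fold change -0.12, interval -0.35 to 0.11). Adra2c stood at 28.1 ± 4.47 and 26.9 ± 5.03 CPM (interval -0.36 to 0.23) and Adra2b at 0.809 ± 0.373 and 0.918 ± 0.302 CPM. Summed over all 6 alpha receptor genes the level was 154 ± 10.1 CPM in WT and 130 ± 6.54 CPM in HOM (SD, n = 4).

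Among muscarinic receptors, Chrm1 and Chrm4 fell by similar amounts and the other 3 did not pass. Chrm1 encodes the Gq-coupled M1 receptor of forebrain principal neurons. Its level was 213, 234, 234 and 214 CPM in WT and 188, 181, 181 and 202 CPM in HOM. The genotypes did not overlap, but the gap between WT replicate 1 and HOM replicate 4 was small (log2 fold change -0.25, SE 0.06, adjusted p = 0.0450). Chrm4 encodes the Gi-coupled M4 receptor, abundant in striatal projection neurons. It read 30.6, 29.2, 31.6 and 29.7 CPM in WT and 24.3, 25.1, 25.3 and 26.0 CPM in HOM, the tightest pair of groups among the 6 lower genes (log2 fold change -0.27, SE 0.07, adjusted p = 0.0389). The log2 ratio of Chrm1 to Chrm4 counts gave 2.89 ± 0.0853 for WT and 2.90 ± 0.0633 for HOM (SD, n = 4), with overlapping ranges.

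Chrm3, a second Gq-coupled subtype, stood at 95.5 ± 14.9 CPM in WT, where replicate 4 was lowest at 74.2 CPM, and at 99.2 ± 8.98 CPM in HOM (log2 fold change 0.05, interval -0.18 to 0.29). Chrm2, a Gi-coupled subtype and autoreceptor of cholinergic neurons, stood at 21.4 ± 2.22 and 21.3 ± 2.73 CPM (interval -0.24 to 0.22). Chrm5 was sparse, at 0.562 ± 0.156 and 0.405 ± 0.149 CPM. Per kilobase of exon, Chrm1 stood at 31.8 CPM over all libraries, Chrm4 at 19.3, Chrm3 at 15.6, Chrm2 at 3.53 and Chrm5 at 0.302. Counts were read as covering introns, though the counting settings are not stated. Intron reads would raise such values for genes of long span, among them Chrm3 and Chrm2.

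**Figure D2:**
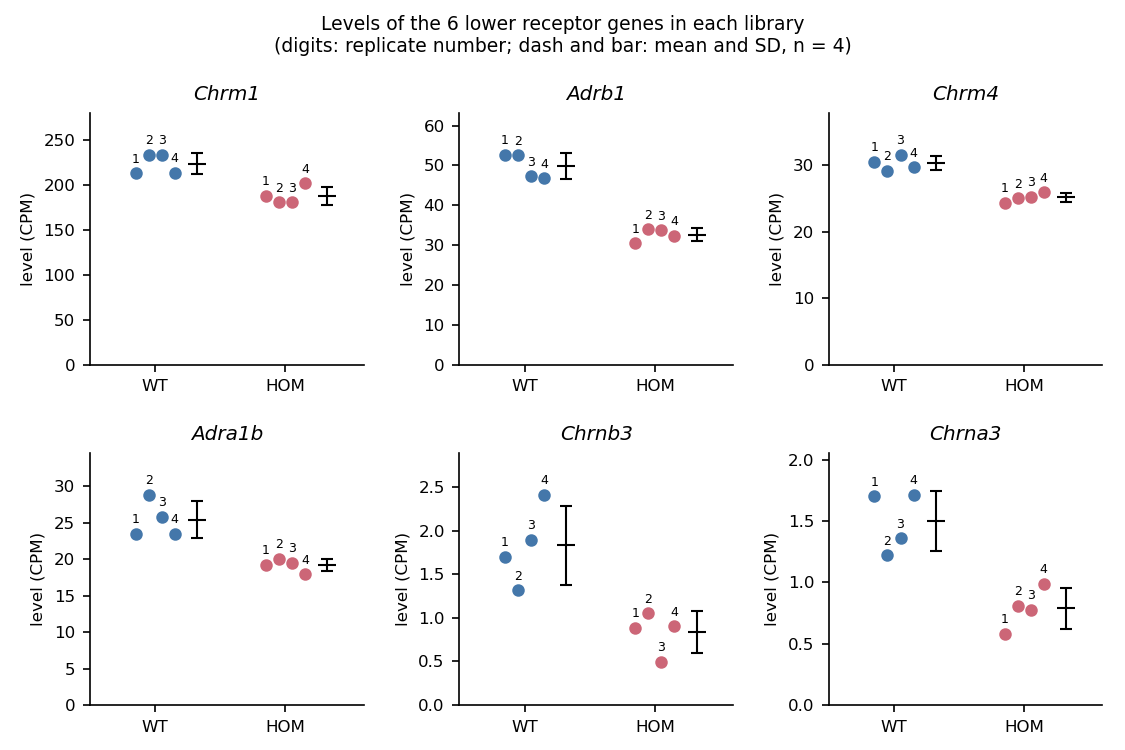
Levels in CPM (y axes, from 0) of the 6 lower receptor genes in each WT and HOM library, with the replicate number over each point and the mean and SD beside it. No gene overlaps between genotypes. Adrb1 has the clearest gap, while Chrna3 and Chrnb3 stay below 2.5 CPM in every library.

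The most abundant nicotinic subunit genes were Chrnb2 and Chrna4. Chrna4 and Chrnb2, which together form the main heteromeric receptor of the forebrain, were lower in HOM by a similar amount and did not pass. Chrna4 read 64.4, 56.3, 63.9 and 60.1 CPM in WT and 48.1, 57.1, 52.4 and 47.9 CPM in HOM, with HOM replicate 2 above WT replicate 2 (log2 fold change -0.25, SE 0.08, adjusted p = 0.0724). Chrnb2 read 69.3, 65.5, 67.7 and 69.0 CPM in WT and 57.9, 61.7, 60.3 and 55.1 CPM in HOM, without overlap (-0.21, SE 0.06, adjusted p = 0.0646), and 39.3% of its span is shared with Adar. The log2 ratio of Chrna4 to Chrnb2 counts was -0.15 ± 0.0675 in WT and -0.20 ± 0.0638 in HOM. Chrna7, the subunit of homomeric receptors, ranged from 15.9 to 19.1 CPM in WT and from 12.0 (replicate 4) to 19.4 CPM (replicate 1) in HOM (interval of the log2 difference -0.41 to 0.17).

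The nicotinic genes that passed were scarce. Chrna3 encodes a subunit of the receptors of autonomic ganglia and the medial habenula. It had 63, 37, 38 and 54 counts in WT and 21, 23, 25 and 35 in HOM, or 1.499 ± 0.248 against 0.788 ± 0.167 CPM (SD, n = 4; log2 fold change -0.93, SE 0.23, adjusted p = 0.0418). Chrnb3, an accessory subunit known from dopamine neurons, had 63, 40, 53 and 76 counts in WT and 32, 30, 16 and 32 in HOM, or 1.83 ± 0.454 against 0.835 ± 0.238 CPM (-1.13, SE 0.27, adjusted p = 0.0337). In CPM neither gene overlapped between genotypes, although in raw counts HOM replicate 4 came within 2 counts of WT replicate 2 at Chrna3.

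Both genes sit beside other nicotinic subunit genes. Chrna3 lies between Chrnb4, 1591 bases away, and Chrna5, 2331 bases away, on chromosome 9. Chrnb4 had 15, 0, 1 and 16 counts in WT and 6, 0, 2 and 0 in HOM, too few for a test. Chrna5, an accessory subunit, spread from 1.52 to 3.57 CPM in WT and from 1.13 to 2.32 CPM in HOM (log2 fold change -0.36, SE 0.31, adjusted p = 0.524). Chrnb3 lies 3481 bases from Chrna6 on chromosome 8, and Chrna6 gave 0.726 ± 0.299 and 0.463 ± 0.213 CPM (-0.63, SE 0.39, adjusted p = 0.357). Beside these values, the medial habenula marker Pou4f1 was at or below 0.603 CPM in every library, highest in WT replicate 4, and Gpr151 at or below 1.27 CPM. Tac2, of the same list, was higher in HOM, at 6.25 ± 0.709 against 8.57 ± 0.414 CPM without overlap (log2 fold change 0.46, adjusted p = 0.0345). The summed level of all 5 habenula markers, 73.9 to 92.3 CPM in WT and 70.2 to 87.5 CPM in HOM, was mostly Nwd2 (71.2 and 65.3 CPM on average). Of the 5 dopamine neuron markers Slc6a3, Pitx3 and En1 were at or below 0.351 CPM in every library, while Th ranged from 1.05 to 1.86 CPM and Slc18a2 from 5.14 to 8.08 CPM, and neither passed.

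Chrna10 was the receptor gene with the largest positive value. It had 7, 8, 3 and 4 counts in WT and 13, 11, 21 and 18 in HOM, so every HOM library was above every WT library. The log2 fold change was 1.44 (SE 0.38, adjusted p = 0.0503), just outside the threshold. It passed with limma-voom (0.0483), with upper-quartile scaling (0.0481), with library totals only (0.0402) and without WT replicate 2 (0.0459). Under every other alternative it did not pass, among them DESeq2, RLE scaling, the choroid plexus level and each other removal of a library. Art1 overlaps 48.0% of its span. If reads shared between genes were dropped, its counts come from the remainder, but the counting settings are not stated. Its usual partner Chrna9, known from cochlear hair cells, had at most 8 counts in any library. Of the other subunit genes, Chrnb1 stood at 6.90 ± 0.773 and 6.58 ± 0.702 CPM, Chrna1 at 1.00 ± 0.144 and 0.848 ± 0.311 CPM, and Chrna2 at 0.767 ± 0.233 and 0.961 ± 0.205 CPM, none of them passing.

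No serotonin receptor gene passed, in either direction, by the edgeR test, and DESeq2 and limma-voom called 0 as well. An unadjusted p under 0.05 was found at 4 of 12, beside 22.9% of all genes tested. The autoreceptor and postsynaptic receptor gene Htr1a read 18.8, 18.6, 20.5 and 20.0 CPM in WT and 16.2, 17.7, 15.2 and 19.0 CPM in HOM (log2 fold change -0.19, SE 0.09, adjusted p = 0.206). Htr7, which encodes a Gs-coupled receptor, read 11.8, 13.2, 12.7 and 12.6 CPM in WT and 11.5, 8.996, 10.97 and 10.4 CPM in HOM, without overlap (-0.26, SE 0.09, adjusted p = 0.125). The other genes with an unadjusted p under 0.05 were Htr1b and Htr1f, which encode Gi-coupled receptors. Htr1b read 9.55, 9.99, 11.9 and 11.9 CPM in WT and 14.1, 13.3, 11.5 and 12.9 CPM in HOM, with HOM replicate 3 inside the WT range (0.26, SE 0.10, adjusted p = 0.156), and 41.1% of its span is shared with D430036J16Rik. Htr1f read 12.3, 11.9, 11.5 and 7.29 CPM in WT and 16.9, 16.4, 11.6 and 12.1 CPM in HOM, with WT replicate 4 lowest (0.40, SE 0.17, adjusted p = 0.182).

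The Gq-coupled serotonin receptor genes varied by library. Htr2a, the main excitatory serotonin receptor of cortical pyramidal neurons, read 39.7, 29.5, 38.1 and 38.8 CPM in WT and 28.5, 40.0, 32.7 and 26.7 CPM in HOM (log2 fold change -0.19, interval -0.47 to 0.09). WT replicate 2 stood apart in its group and HOM replicate 2 was the highest of all. Htr2c, known both from neurons and from choroid plexus epithelium, read 68.0, 54.4, 56.0 and 84.3 CPM in WT and 67.4, 54.7, 61.0 and 54.4 CPM in HOM (-0.15, interval -0.42 to 0.13). In each genotype its highest library was the one with the highest summed choroid plexus markers, WT replicate 4 (1728 CPM) and HOM replicate 1 (236 CPM). WT replicate 4 was also highest in summed thalamic neuron markers (7 genes, none at 0), at 222 CPM against 103 to 106 CPM in the other WT libraries. In HOM that sum was highest in replicate 3 (130 CPM), followed by replicate 1 (124 CPM). The part of either tissue in the Htr2c values was not tested. With the choroid plexus level in the fit the log2 fold change of Htr2c turned to 0.30 (adjusted p = 0.289). Without WT and HOM replicates 4 together it was 0.043, and without WT replicate 4 it was -0.0040.

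The remaining serotonin receptor genes tested did not pass, and the interval of each log2 fold change included 0. Htr5a gave 23.6 ± 1.45 CPM in WT and 20.3 ± 3.64 CPM in HOM, Htr6 8.23 ± 1.39 and 9.19 ± 0.355 CPM, and Htr4 6.07 ± 0.965 and 6.91 ± 0.650 CPM. Htr1d stood at 3.63 ± 0.314 and 3.88 ± 1.09 CPM, with HOM replicate 4 highest at 5.25 CPM, and Htr5b at 1.57 ± 0.390 and 1.21 ± 0.252 CPM. The channel subunit gene Htr3a, with 57.0% of its span shared with Gm32335, gave 2.19 ± 0.437 and 2.14 ± 0.197 CPM. Its partner Htr3b had at most 4 counts in a library.

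Dopamine receptor genes did not pass either, nor did DESeq2 or limma-voom call any. An unadjusted p under 0.05 was found at 0 of 5. Drd1, the Gs-coupled receptor of the direct striatal pathway, read 25.7, 27.4, 28.4 and 29.2 CPM in WT and 30.5, 33.1, 23.4 and 27.8 CPM in HOM (log2 fold change 0.05, interval -0.17 to 0.27). Drd2, the Gi-coupled receptor of the indirect pathway, read 21.4, 22.2, 20.4 and 27.8 CPM in WT and 23.6, 30.5, 18.8 and 27.9 CPM in HOM (0.13, interval -0.18 to 0.44). For both genes HOM replicate 2 was the highest of the 8 libraries and HOM replicate 3 the lowest. The same held for the summed striatal projection neuron markers (9 genes, none at 0), with 1050 CPM in HOM replicate 2, 719 CPM in HOM replicate 3 and a range of 800 to 915 CPM in WT. The log2 ratio of Drd1 to Drd2 counts gave 0.28 ± 0.167 for WT and 0.20 ± 0.174 for HOM (SD, n = 4). Chrm4, which direct pathway neurons also express, did not follow this order, since its HOM values lay between 24.3 and 26.0 CPM. Drd3, Drd4 and Drd5 stood at or below 1.15 CPM in every library. Drd4 had the smallest p of the family, at 0.375 ± 0.0622 and 0.228 ± 0.109 CPM (-0.67, interval -1.50 to 0.15).

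**Figure D3:**
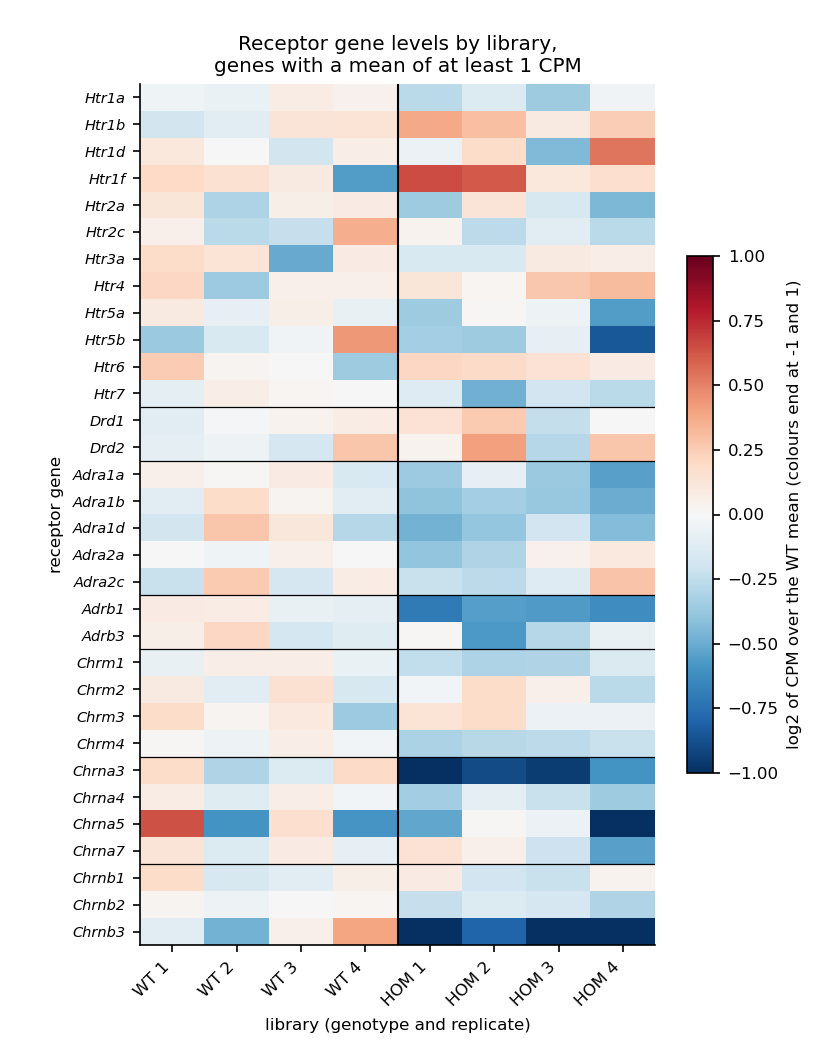
Log2 of each library's CPM over the WT mean (colour, ending at -1 and 1) for 32 tested receptor genes with a mean of at least 1 CPM (rows, by family) in the 8 libraries (columns). Adrb1, Chrna3 and Chrnb3 are blue in all 4 HOM libraries, whereas Drd1 and Drd2 show both colours among the HOM libraries.

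The 6 calls were not equally firm. Adrb1 passed under all 18 alternatives, with a highest adjusted p of 0.0452 when the choroid plexus level was in the fit, and its log2 fold change ranged from -0.69 to -0.55. Adra1b did not pass without WT replicate 3 (adjusted p = 0.0734), without HOM replicate 1 (0.0812), 3 (0.0788) or 4 (0.0549), without WT and HOM replicates 4 together (0.0537) or with the choroid plexus level (0.145). Chrm1 passed without HOM replicate 4 (0.0455) and Chrm4 without WT replicate 2 (0.0443), and each failed in the 7 other removals, at 0.0612 to 0.147 and 0.0583 to 0.1299. Chrna3 passed without WT replicate 2 (0.0410) or HOM replicate 4 (0.0498) and otherwise lay at 0.0554 to 0.128. Chrnb3 passed without WT replicate 2 (0.0301) or HOM replicate 2 (0.0315) and otherwise lay at 0.0568 to 0.0970. Leaving out WT and HOM replicates 4 together ended these 4 calls (0.0532, 0.0855, 0.0917 and 0.112). So did the choroid plexus level in the fit (0.204, 0.226, 0.330 and 0.358), although the log2 fold changes of Chrm1, Chrm4, Chrna3 and Chrnb3 were then -0.32, -0.32, -0.92 and -0.92, and that of Adra1b -0.49. Upper-quartile scaling ended the calls of Chrm1 (0.0711) and Chrm4 (0.0590), as did testing with no filter (0.0574 and 0.0731), and with library totals only Chrna3 was lost as well (0.0502). The number of lower receptor genes was 1 when WT replicate 3 was left out, likewise for HOM replicates 1 and 3, then 2 without WT replicate 1 or 4, 3 without HOM replicate 4, and 10 with DESeq2, which added Adra1a, Adra1d, Chrna4 and Chrnb2. Calls over all genes, in either direction, shifted too, at 12.4% with DESeq2 beside 5.40% as reported. Dropping WT replicate 3 gave 1.03%, dropping HOM replicate 1 gave 1.21% and dropping HOM replicate 3 gave 1.02%. Dropping WT or HOM replicate 2 gave 5.42% and 6.74%, with 5 lower receptor genes each. Receptor counts alone thus do not show firmness, and no test compared them with calls over all genes. All 6 log2 fold changes stayed negative under every alternative run. Since every HOM library lay below every WT library at these genes, leaving a library out could hardly turn the sign.

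**Figure D4:**
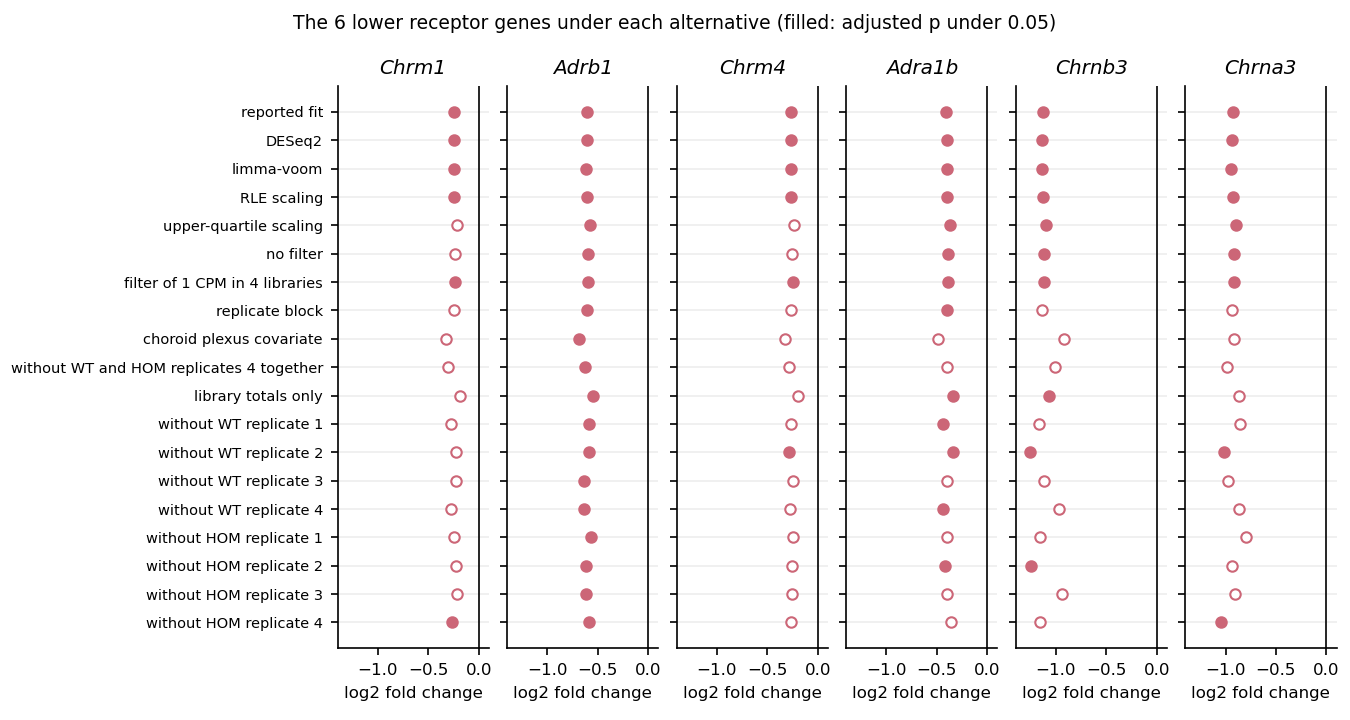
Log2 fold change (HOM over WT, x axes) of the 6 lower receptor genes in the reported fit and under each of 18 alternatives (y axis), filled where adjusted p is under 0.05. Adrb1 is filled in every line, and the other genes keep their side of 0 while most of their points are open when a library is left out.

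Upstream sequence was examined because these 6 genes moved in the same direction. RefSeq promoter windows on GRCm38.p6 were found for 34 of the 45 genes and for 4 of the 6 lower ones, Adrb1, Adra1b, Chrm4 and Chrna3. The 250 bases before each annotated start are given below, 5′ to 3′ on the strand of the gene, and none overlaps an annotated exon. Capitals mark matches, on either strand, to the motifs searched.
Adrb1 (plus strand, chr19:56721867-56722116): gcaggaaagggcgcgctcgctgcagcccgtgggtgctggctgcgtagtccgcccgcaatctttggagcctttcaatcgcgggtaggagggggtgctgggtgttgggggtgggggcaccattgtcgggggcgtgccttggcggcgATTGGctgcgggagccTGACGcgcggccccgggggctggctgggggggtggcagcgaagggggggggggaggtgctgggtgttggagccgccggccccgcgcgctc
Chrm4 (plus strand, chr2:91921939-91922188): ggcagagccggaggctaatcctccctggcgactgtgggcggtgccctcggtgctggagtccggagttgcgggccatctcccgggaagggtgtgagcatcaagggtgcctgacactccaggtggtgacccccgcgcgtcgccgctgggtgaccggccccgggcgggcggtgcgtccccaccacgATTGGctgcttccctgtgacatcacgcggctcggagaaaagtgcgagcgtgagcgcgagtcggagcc
Adra1b, upstream start (minus strand, chr11:43901238-43901487): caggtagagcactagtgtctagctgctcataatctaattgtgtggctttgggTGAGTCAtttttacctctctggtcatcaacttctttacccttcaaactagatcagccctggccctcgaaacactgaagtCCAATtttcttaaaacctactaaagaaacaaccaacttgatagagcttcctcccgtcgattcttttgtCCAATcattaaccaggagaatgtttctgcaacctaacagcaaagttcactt
Adra1b, downstream start (minus strand, chr11:43836490-43836739): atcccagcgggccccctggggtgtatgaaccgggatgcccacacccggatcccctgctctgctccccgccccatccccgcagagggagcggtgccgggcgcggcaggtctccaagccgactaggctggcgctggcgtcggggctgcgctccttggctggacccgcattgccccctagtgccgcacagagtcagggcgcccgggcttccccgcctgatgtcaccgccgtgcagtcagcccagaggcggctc
Chrna3 (minus strand, chr9:55026563-55026812): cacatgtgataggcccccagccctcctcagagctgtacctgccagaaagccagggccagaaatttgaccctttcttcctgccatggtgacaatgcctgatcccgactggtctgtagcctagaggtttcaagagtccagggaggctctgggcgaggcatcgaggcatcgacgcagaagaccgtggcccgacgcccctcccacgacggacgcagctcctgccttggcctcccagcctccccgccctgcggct

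The motifs were the cyclic AMP response element TGACGTCA and its shorter core TGACG, which overlaps it, the Egr sites GCGTGGGCG and GCGGGGGCG, the AP-1 site TGANTCA and the CCAAT box, the last chosen after the sequences were seen. Adrb1 held the core TGACG, 90 bases before the start, and a CCAAT box read on the other strand as ATTGG. Chrm4 held the same box. The longest run of bases shared by these windows is the 11-base cgATTGGctgc, which occurs in 45 of 32851 windows of all genes (0.137%). Because the run was picked from this pair, its share is no test of a link between the genes. The upstream Adra1b window held an AP-1 match (TGAGTCA), 198 bases before the start, and CCAAT boxes 119 and 51 bases before it. The downstream window and that of Chrna3 held no match. Over all genes' windows TGACG was found in 17.8%, TGANTCA in 6.75% and CCAAT in 33.85%. Over the 39 windows of receptor genes the shares were 15.4%, 7.69% and 28.2%. TGACGTCA, found in 1.55% of all windows, was in none of the 39, and GCGTGGGCG and GCGGGGGCG were in 1 each, against 0.536% and 2.57% of all windows. The RefSeq start of Chrm4 lies 5060 bases before the gene as annotated in GENCODE M21, a single exon of 1440 bases (ENSMUSG00000040495, chromosome 2, 91927249 to 91928688), so reads of the first exon are not part of its count under that annotation.

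Around the receptors, 90 genes that make, carry, break down or relay these transmitters were listed and 82 tested. Of these 3 rose and 4 fell, which is 8.54% called beside 5.40% of all genes, and the median log2 fold change was -0.04. Of the 12 monoamine enzyme and transporter genes tested, Slc22a3 rose, a low-affinity uptake transporter for monoamines. It read 4.57, 4.32, 5.01 and 5.71 CPM in WT and 7.25, 6.82, 6.48 and 8.08 CPM in HOM, without overlap (log2 fold change 0.55, SE 0.12, adjusted p = 0.0307). The degrading enzymes Maoa (-0.11) and Maob (-0.03) did not pass. None of 5 acetylcholine genes tested passed, among them the esterase gene Ache (-0.11, SE 0.08) and the synthetic enzyme gene Chat (0.15, SE 0.25).

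Partners of nicotinic receptors moved in both directions. Lynx1, a membrane-anchored protein that restrains nicotinic receptors, read 366, 398, 380 and 366 CPM in WT and 238, 268, 237 and 270 CPM in HOM. It fell, with means of 378 ± 15.3 and 253 ± 18.3 CPM (SD, n = 4; log2 fold change -0.58, SE 0.07, adjusted p = 0.00119). Its relative Lypd1 rose, from 31.5, 29.3, 27.6 and 29.2 CPM in WT to 40.6, 32.4, 38.8 and 44.7 CPM in HOM (0.41, SE 0.09, adjusted p = 0.0314). The other 7 genes of that list, including the chaperone genes Ric3 (-0.11) and Tmem35a (0.08), did not pass.

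Downstream of the receptors, Gng4, a G protein gamma subunit, fell from 58.3 ± 2.01 to 47.0 ± 2.06 CPM (log2 fold change -0.31, adjusted p = 0.0191), and 16 other G protein genes did not pass. The calcium-stimulated cyclase gene Adcy1 fell from 1117 ± 72.6 to 840 ± 93.6 CPM (-0.41, adjusted p = 0.0215). Prkar1b, a regulatory subunit of protein kinase A, fell from 857 ± 44.0 to 696 ± 35.5 CPM (-0.30, adjusted p = 0.0234), and the receptor kinase gene Grk4 rose from 5.63 ± 0.545 to 7.67 ± 0.309 CPM (0.44, adjusted p = 0.0359). The striatal signalling genes Ppp1r1b (0.02, SE 0.14; 75.4% of its span shared) and Pde10a (0.10, SE 0.11) did not pass. Lynx1 passed under all 18 alternatives, with a highest adjusted p of 0.0250, while the choroid plexus level in the fit ended the other 6 calls (0.124 to 0.281). The log2 fold changes in that fit were 0.66 for Slc22a3, 0.49 for Lypd1, 0.53 for Grk4, -0.27 for Gng4, -0.48 for Adcy1 and -0.39 for Prkar1b. Without WT replicate 3 or HOM replicate 3 it was the only call among these genes (adjusted p of the other 6 from 0.0646 to 0.103), and Gng4 remained with it without HOM replicate 1 (0.0491). Without HOM replicate 4 the 3 higher genes did not pass (0.0536 to 0.0620). Without WT replicate 1 Slc22a3 (0.0692) and Adcy1 (0.0515), without WT replicate 2 Slc22a3 (0.0539) and Grk4 (0.0627), and without WT replicate 4 Lypd1 (0.0692) and Grk4 (0.0658) did not pass.

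**Figure D5:**
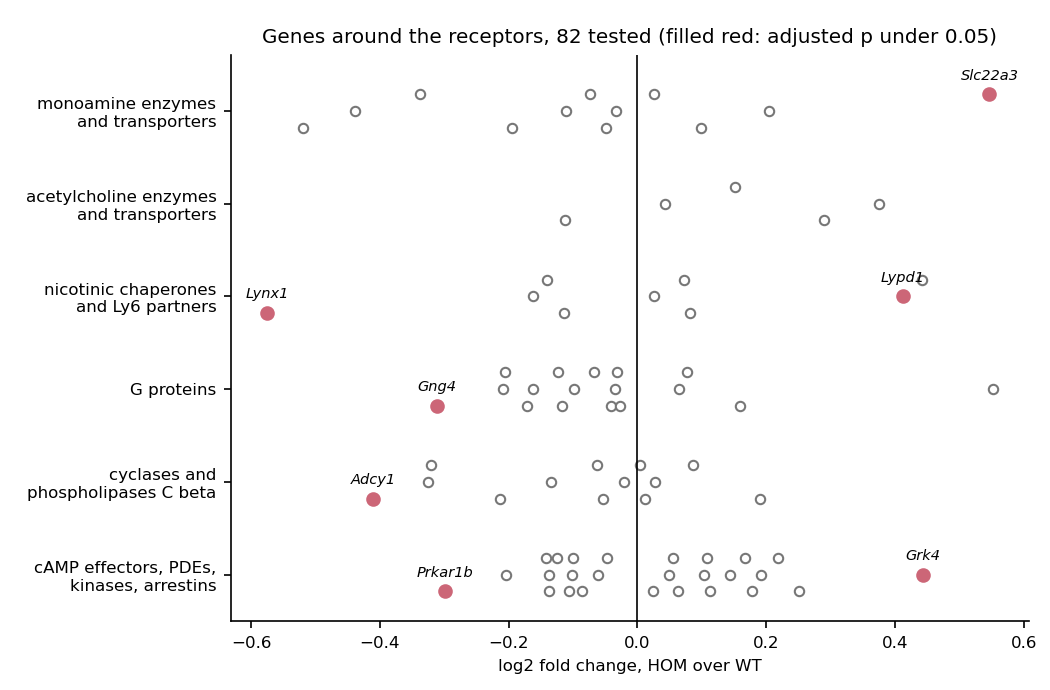
Log2 fold changes (HOM over WT, x axis) of the 82 tested genes around the receptors, by list (y axis); height within a list has no meaning and filled red points mark adjusted p under 0.05. The named points are the 7 called genes, 4 left of 0 and 3 right of it, and most of the others lie within 0.3 of 0.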

How the data were processed

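Total RNA of 4 WT and 4 HOM samples was made into stranded paired-end libraries, per the labels' protocols. The deposited values are raw counts, whole numbers for each Ensembl gene. GRCm38 is the build in the submitters' processing notes, which list STAR, featureCounts, edgeR and FastQC (0.11.3). For the other tools no version was found, and the annotation and the feature and strand settings used for counting are not stated in the labels. Names and positions came from GENCODE mouse M21 (GRCm38), which matched all but 37 identifiers. Of 1280 protein-coding genes nested in another gene 1261 had 0 counts, against 2784 of 20638 others, so counts were read as covering introns, ignoring strand and dropping shared reads.

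Counts were tested in R 4.3.3 with edgeR 4.0.16 (quasi-likelihood, TMM, filterByExpr: about 10 counts in 4 libraries and 15 in all; Benjamini-Hochberg over 17395 genes, threshold 0.05). The common dispersion was 0.0138. CPM used TMM-adjusted library sizes and log2 CPM a prior count of 2. One read equals 0.0270 to 0.0358 CPM. Exact permutation tests had 70 relabellings, with a smallest p of 0.0286. No replicate pair agreed within sampling noise (lowest chi-square per degree of freedom 7.03). Alternatives were DESeq2 1.42.0, limma-voom (limma 3.58.1), upper-quartile or RLE scaling, a filter of 1 CPM, none at all, a replicate block, a choroid plexus covariate, left-out libraries and, added after the data were seen, library totals only. Receptor genes, lists and motifs were chosen with earlier results of these data known. Genes named outright are every receptor gene past the threshold, the member of smallest p and of highest CPM in each family, and up to 4 higher and 4 lower genes of smallest p from the lists around the receptors; the remaining receptor genes are given so that they are accounted for. Promoter windows are from RefSeq (GRCm38.p6). Results for 1 receptor gene and 1 gene of the lists, counted in the totals, are not reported here.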

Additional observations from a re-analysis of the deposited data

Results flagged for a closer look

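In 1 of the 88 groups of 4 libraries examined (44 genes in each genotype) a library lay apart from the other 3 by Dixon's criterion at 95%. Chance alone gives this in about 5% of groups, or 4.4 of 88. For Htr2a, WT replicate 2 was lowest at 29.5 CPM, with the next WT library at 38.1 and the highest at 39.7 CPM.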

How the results depend on the processing

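The number of lower receptor genes, 6 as reported, was 10 with DESeq2, 2 with the replicate block, 1 with the choroid plexus covariate, 1 without WT and HOM replicates 4 together, 3 with library totals only, and 1 to 5 with a library left out. The number of higher receptor genes, 0 as reported, was 1 (Chrna10) with limma-voom, upper-quartile scaling and library totals only, and 0 to 1 with a library left out. The genes around the receptors, 3 higher and 4 lower as reported, gave 0 higher and 2 lower with the replicate block, 0 and 1 with the covariate, 0 higher without WT and HOM replicates 4 together, 7 lower with DESeq2, and 0 to 4 higher and 1 to 6 lower with a library left out. Over all genes the calls numbered 940 as reported, 1847 with DESeq2, 364 with the replicate block, 36 with the covariate, 335 without both replicates 4, and 180 to 1187 with a library left out. The cause was not tested. The sign turned for Drd1 without HOM replicate 2 (-0.011, the lowest of -0.011 to 0.15 with a library left out) and for Htr2c with the covariate (0.30) and without both replicates 4 (0.043). Of all values of named genes under an alternative, 258 kept direction and side of the threshold, 92 lost the call, 5 gained it and 3 turned sign. The choroid plexus difference in mean log2 CPM was -2.06 as reported and -2.48 to -1.54 with a library left out. The replicate numbers did not pair the samples: same-numbered WT and HOM libraries had deviations correlated at 0.05, -0.20, -0.01 and 0.03, and no library correlated best with its own number. The covariate shares part of its spread with genotype, so calls lost under it do not show its part in them. At about 0.03 CPM per read, genes under 1 CPM rest on few reads.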
